A study of Homo sapiens with 15 samples.

Results

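The MekDD line and the AKTmyr line of the ARPE19 series were compared across the transcriptome by polyA RNA-seq. Both were made from ARPE19, an established cell line of human retinal pigment epithelium, and both carry 2 plasmids in common, one for hTERT with p53DD and one for cyclin D1 with CDK4R24C. MekDD cells carry in addition a MEK-DD plasmid, are assigned by the labels to the MAPK pathway and are labelled weakly transformed. AKTmyr cells carry in addition a myr-HA-Akt plasmid, are assigned to the PI3K-AKT pathway and are labelled transformed. The T53D4 line, which carries only the 2 shared plasmids and is labelled not transformed, serves to place single genes, and untransfected ARPE19 gives the background of the construct rows. The comparison used 3 MekDD and 3 AKTmyr libraries of the 15 in the series, chosen by their labelled line and paired by replicate number, and 13588 of 15510 gene rows were tested. Each construct is represented by 1 line, so the effect of a construct and the history of a line cannot be told apart. A replicate is a separate vial, thawed and passaged 2 times in DMEM/F12 with serum. The p-values rest on the spread between such cultures within a line, estimated jointly over all 15 libraries of the 5 lines, RasV12 included. They do not measure a spread between separately made lines.

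MEK1 and MEK2 are kinases that phosphorylate and switch on ERK1 and ERK2, and ERK raises the transcription of ETS and AP-1 factors together with its own inhibitors, the dual-specificity phosphatases and the Sprouty and SPRED proteins. MEK-DD is a MEK1 form with aspartates in place of the activating phosphorylation sites, which signals without RAF. AKT, which a myristoyl group holds at the membrane without PI3K, phosphorylates FOXO factors out of the nucleus and acts through mTORC1 on glucose uptake, glycolysis, lipid synthesis and hypoxia-response genes. In retinal pigment epithelium these pathways are known for their part in loss of pigment cell features and in growth and migration.

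The construct rows of the table followed the labels for both distinguishing plasmids. In CPM (reads on a row per 1 M gene reads, after TMM scaling between libraries), the MEK-DD row stood at 606, 1017 and 636 in the MekDD libraries (replicates 1, 2 and 3), against 0.027, 0.0441 and 0.0417 in the AKTmyr libraries, where it held 4 reads in all. The row for myristoylated AKT, which the table names for a FLAG tag, stood at 119, 122 and 107 in MekDD and at 543, 775 and 1201 in AKTmyr. Every AKTmyr library was above every MekDD library, while the MekDD mean of 116 CPM lay beside 117 CPM in T53D4 and 104 CPM in untransfected ARPE19. The shared plasmids differed as well. The cyclin D1 row averaged 269.6 ± 57.6 CPM in MekDD and 858 ± 132 CPM in AKTmyr (SD, n = 3 each), with a log2 fold change of -1.67 ± 0.22 (SE; adjusted p = 0.000123 by the quasi-likelihood test of edgeR, adjusted after Benjamini and Hochberg). The CDK4R24C row averaged 142 ± 13.7 CPM in MekDD and 1006 ± 89.8 CPM in AKTmyr, a log2 fold change of -2.82 ± 0.12 (adjusted p = 2.55e-08). Untransfected ARPE19 averaged 193 CPM on the cyclin D1 row and 70.8 CPM on the CDK4R24C row. T53D4, which carries the same plasmid, averaged 146 CPM and 92.2 CPM on these rows. The log2 fold changes over T53D4 on the cyclin D1 and CDK4R24C rows were 2.56 and 3.45 for AKTmyr and 0.88 and 0.63 for MekDD. AKTmyr and T53D4 therefore differed on these rows as well as on AKT. The p53DD row was also lower in MekDD, at 32.3 ± 8.37 CPM against 58.4 ± 20.1 CPM in AKTmyr (adjusted p = 0.00956). The hTERT row did not pass the test, at 454 ± 58.3 CPM in MekDD and 633 ± 175 CPM in AKTmyr (adjusted p = 0.0673). The lines therefore differed on 3 rows of the shared plasmids as well as on MEK-DD and AKT, and the part of each in the results was not tested.

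**Figure D1:**
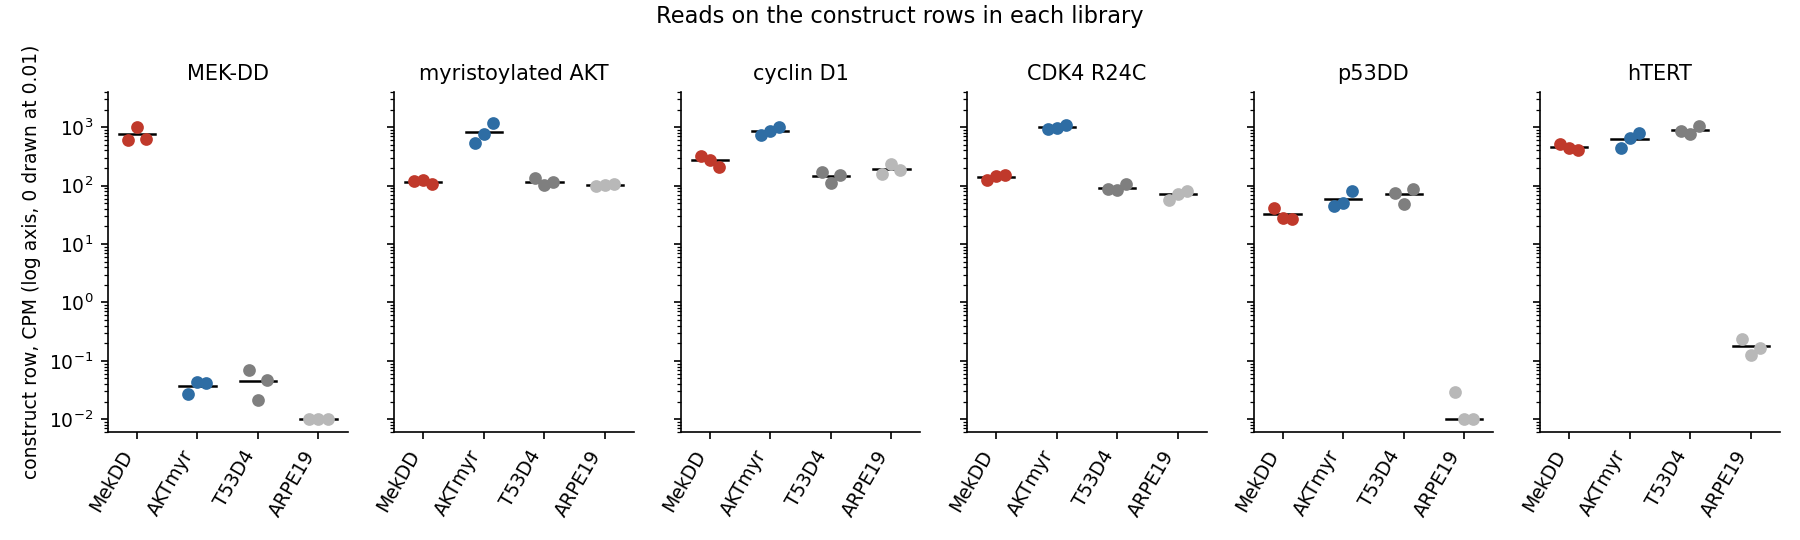
Reads on 6 construct rows, in CPM on a log axis, in the 3 libraries each of MekDD, AKTmyr, T53D4 and untransfected ARPE19 (points; black lines are means; a value of 0 is drawn at 0.01). MEK-DD averaged 753 CPM in MekDD and 0.0376 CPM in AKTmyr, and the CDK4R24C row averaged 142 CPM in MekDD and 1006 CPM in AKTmyr.

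Gene reads, in units of 1 M, numbered 22.9 to 36.9 in the MekDD libraries and 24 to 46.5 in the AKTmyr libraries, and no pair of libraries within a line agreed within counting noise. The first principal component of the 6 libraries held 67.9% of the variance and set the lines apart. Of 16 markers of retinal pigment epithelium, 14 were in the table and 12 were tested, and their summed level ranged over 1127 to 1405 CPM in MekDD and 1337 to 2038 CPM in AKTmyr. Of 29 markers of other cell types, 17 were in the table and 9 were tested. In MekDD 1 was higher and 1 lower, 11.1% each, beside 20.3% and 20% over all genes. The count higher was 0 without replicate 2 of MekDD or replicates 2 or 3 of AKTmyr, and the count lower was 2 without replicate 3 of MekDD. Their summed level ranged over 191 to 276 CPM in MekDD and 173 to 215 CPM in AKTmyr, and their part in the results was not tested. The library kit was directional but no source used here states whether counting used the strand, so reads of a gene and of an antisense partner may not be told apart. In these bulk libraries, fewer cells of a kind and less RNA per cell cannot be told apart.

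The 2 lines differed in a large share of their genes, and the largest differences ran downward in MekDD. Of the 13588 genes tested, 2753 were higher in MekDD (20.3%) and 2717 were lower (20%) at an adjusted p under 0.05, here termed called. The median log2 fold change over all genes was 0.02. At least 2-fold differences were called for 684 genes higher in MekDD (5.03%) and 1042 genes lower (7.67%), and differences of 5 or more on the log2 scale for 17 higher and 85 lower. All 3 MekDD libraries lay on one side of all 3 AKTmyr libraries for 39.4% of the genes. For placing single genes against T53D4, the same fit called 11.5% of genes between MekDD and T53D4 and 34.9% between AKTmyr and T53D4; these comparisons share libraries with each other and with the main one. Without the replicate number in the model, 1722 genes were higher and 1821 lower, and all 3543 were also called with it.

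**Figure D2:**
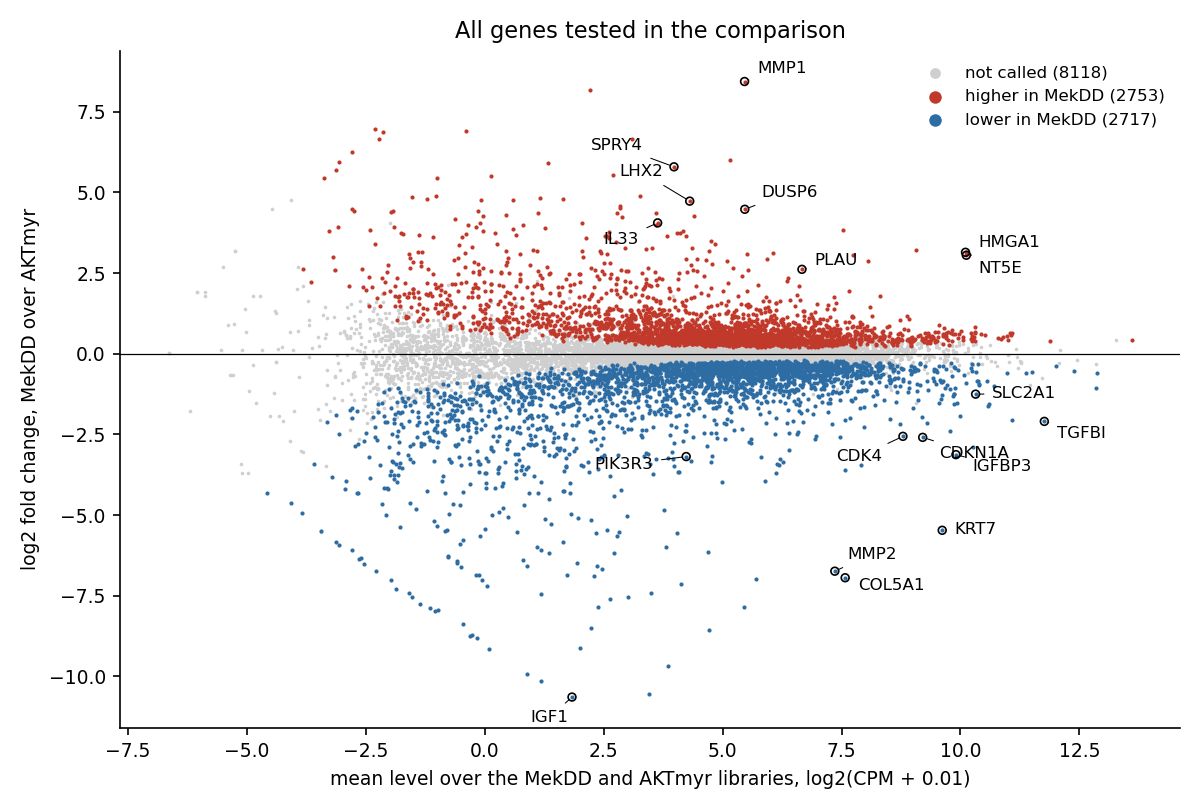
Log2 fold change of MekDD over AKTmyr against the mean level over the 6 libraries, as log2(CPM + 0.01), for the 13588 genes tested (1 point a gene; red, called higher in MekDD; blue, called lower; grey, not called). MMP1, SPRY4, LHX2 and DUSP6 stand at the upper edge, and IGF1, COL5A1, MMP2 and KRT7 at the lower edge.

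The ERK output and feedback genes were higher in MekDD almost throughout. Of 30 tested, 24 were higher (80%) and 0 lower, beside 20.3% and 20% over all genes. The 24 were without overlap between the lines, as were 4488 of all 5470 genes called. The median log2 fold change of the list was 1.46, beside 0.02 over all genes. This list and the others below were assembled with earlier results of these data known, so their counts describe it and are not independent evidence of its direction. The phosphatase gene DUSP6, whose product dephosphorylates ERK itself (chr12:89347235-89352501 in hg38), stood at 85.3, 96.8 and 71.8 CPM in the MekDD libraries, against 4.0, 3.15 and 4.33 CPM in the AKTmyr libraries. The lines were far apart, with a log2 fold change of 4.48 ± 0.21 (SE; adjusted p = 1.17e-07). SPRY4, a Sprouty inhibitor of receptor signalling to RAS (chr5:142310427-142326455), stood at 34.7, 33.9 and 24.3 CPM in MekDD, against 0.541, 0.771 and 0.333 CPM in AKTmyr. Its log2 fold change of 5.8 ± 0.24 was the largest of the list (adjusted p = 3.56e-08). SPRY2, of the same family, stood at 62.9, 80.4 and 71.6 CPM in MekDD, against 14.1, 12.1 and 14.3 CPM in AKTmyr (log2 fold change 2.42 ± 0.14). DUSP4 and DUSP5, nuclear phosphatases of ERK, averaged 119.6 ± 31.8 and 82.3 ± 28.1 CPM in MekDD, against 13.7 ± 4.73 and 9.64 ± 2.71 CPM in AKTmyr. SPRED1, which recruits neurofibromin to RAS, averaged 78.6 ± 9.2 CPM in MekDD and 33.2 ± 8.19 CPM in AKTmyr (log2 fold change 1.26 ± 0.15).

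**Figure D3:**
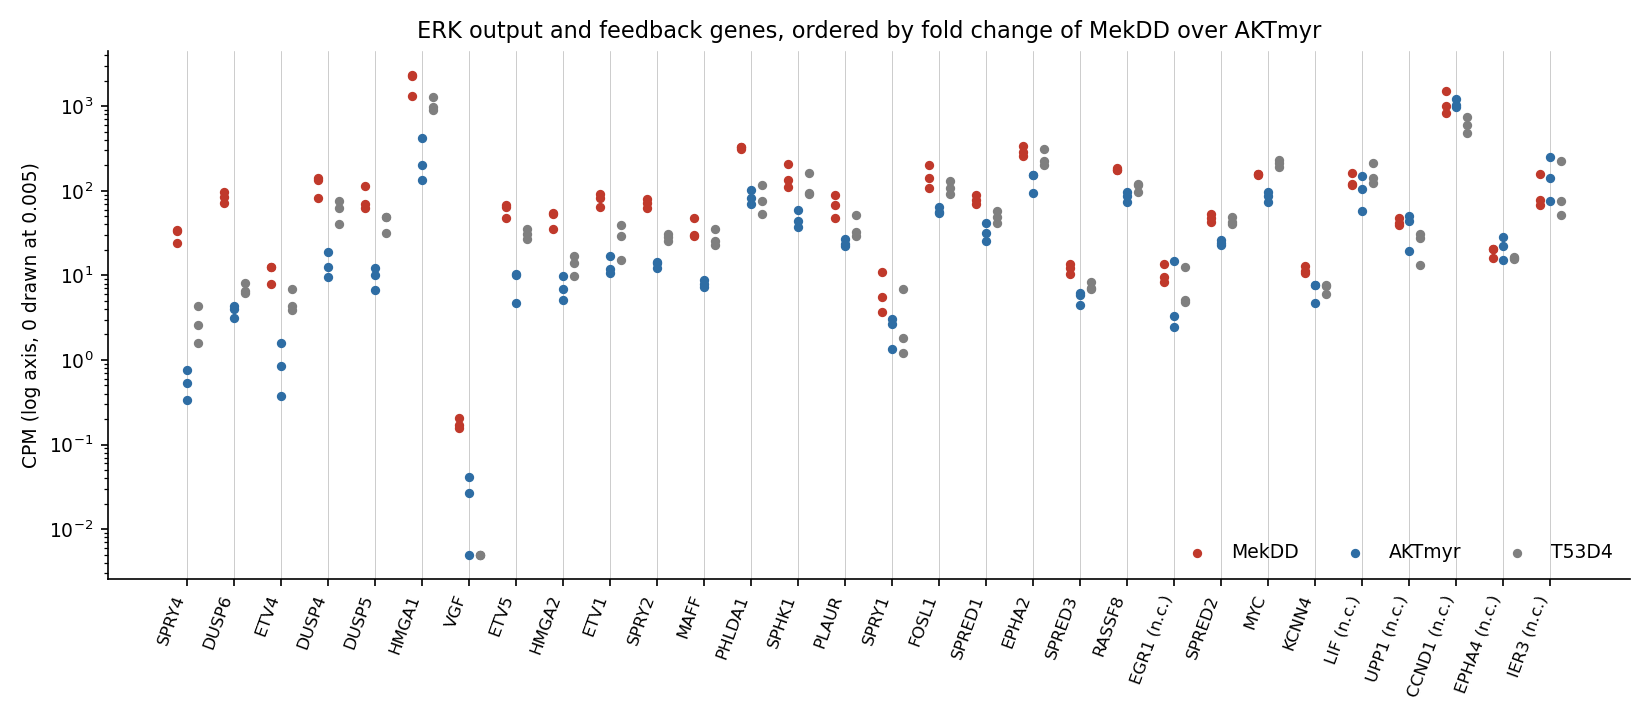
Level of the 30 ERK output and feedback genes, in CPM on a log axis, in the 3 libraries each of MekDD (red), AKTmyr (blue) and T53D4 (grey), ordered by the log2 fold change of MekDD over AKTmyr (1 point a library; n.c., not called; 0 drawn at 0.005). The 24 called genes are higher in every MekDD library than in every AKTmyr library, from SPRY4 at 5.8 to KCNN4 at 0.80 on the log2 scale.

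Set against T53D4, DUSP6, SPRY4, SPRY2 and DUSP5 were higher in MekDD and lower in AKTmyr. DUSP6 was higher in MekDD than in T53D4 (log2 fold change 3.6, adjusted p = 4.83e-07) and lower in AKTmyr than in T53D4 (-0.88, adjusted p = 0.00657). SPRY4 had values of 3.51 for MekDD and -2.28 for AKTmyr against T53D4, and SPRY2 had values of 1.35 and -1.07. DUSP5 lay nearer to T53D4 in MekDD (0.91) than in AKTmyr (-2.18). PHLDA1, a pleckstrin-homology protein induced by growth factors, was placed otherwise: it stood at 327, 325 and 309 CPM in MekDD, against 81.2, 69.6 and 103 CPM in AKTmyr. Its AKTmyr level was close to that of T53D4 (log2 fold change 0.07, adjusted p = 0.84).

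Several transcription and chromatin factors downstream of ERK were higher in MekDD as well. ETV4, ETV5 and ETV1, the PEA3 group of ETS factors, averaged 11 ± 2.6, 59.9 ± 11.1 and 79.3 ± 14.2 CPM in MekDD, against 0.933 ± 0.608, 8.43 ± 3.2 and 13.3 ± 3.39 CPM in AKTmyr. FOSL1, the AP-1 subunit FRA1, stood at 204, 141 and 109 CPM in MekDD, against 64.1, 54.5 and 56.4 CPM in AKTmyr (log2 fold change 1.34 ± 0.16, adjusted p = 6.73e-05). The architectural chromatin genes HMGA1 and HMGA2 had log2 fold changes of 3.05 ± 0.41 and 2.79 ± 0.26. HMGA1 stood at 2272, 2357 and 1308 CPM in MekDD and 135, 203 and 416 CPM in AKTmyr, which did not overlap. MYC averaged 157 ± 2.61 CPM in MekDD and 86.1 ± 11.9 CPM in AKTmyr (log2 fold change 0.88 ± 0.13), and T53D4 was above both at 212 CPM. The 6 members not called were EGR1, IER3, LIF, UPP1, EPHA4 and CCND1. EGR1, an immediate early zinc-finger factor, stood at 13.6, 9.51 and 8.45 CPM in MekDD and at 14.8, 3.35 and 2.46 CPM in AKTmyr, where replicate 1 was high, and the lines overlapped (adjusted p = 0.0764). CCND1, whose gene row can take reads of the cyclin D1 plasmid, averaged 1119 ± 365 CPM in MekDD and 1073 ± 122 CPM in AKTmyr (adjusted p = 0.906). Against T53D4, ETV5 was higher in MekDD (log2 fold change 0.94, adjusted p = 0.0439). ETV4 and FOSL1 were not called between MekDD and T53D4 (1.12 and 0.43, adjusted p = 0.0693 and 0.0958). ETV5, ETV4 and FOSL1 were lower in AKTmyr than in T53D4 (-1.93, -2.52 and -0.90).

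Of 21 AP-1 and immediate early genes tested, 10 were higher in MekDD (47.6%) and 1 lower (4.76%), beside 20.3% and 20% over all genes. Their median log2 fold change was 0.41. MAFF, a small MAF protein that partners AP-1 and CNC factors, averaged 35.7 ± 10.4 CPM in MekDD and 8.06 ± 0.742 CPM in AKTmyr. KLF2 averaged 22.6 ± 4.12 CPM in MekDD and 6.82 ± 2.82 CPM in AKTmyr. IER2, an immediate early gene, had a log2 fold change of 0.89 ± 0.14 (adjusted p = 0.0531 without the replicate number). JUN passed by little (0.32 ± 0.11, adjusted p = 0.0304) and was not called with any 1 of the 6 libraries left out (adjusted p of 0.0508 to 0.108). The 1 member lower was KLF10 (-0.63 ± 0.10), an early response gene of TGF-beta, and the count lower was 2 without replicate 3 of AKTmyr. Against T53D4, MAFF was not called in MekDD (0.36) and was lower in AKTmyr (-1.74). KLF2 was higher in MekDD than in T53D4 (1.19) and was not called between AKTmyr and T53D4 (-0.55). Among EGFR ligands and regulators, 3 of 14 tested were higher and 3 lower, each 21.4% beside 20.3% and 20% over all genes. The ligands HBEGF and NRG2 and the EGFR inhibitor ERRFI1 were higher (log2 fold changes 1.36 ± 0.26, 3.11 ± 0.27 and 1.37 ± 0.21). EGFR itself was lower, at 239 ± 37.5 CPM in MekDD and 398 ± 69.4 CPM in AKTmyr (-0.73 ± 0.12). Against T53D4, HBEGF was not called in MekDD (-0.10) and was lower in AKTmyr (-1.46). NRG2 and ERRFI1 were higher in MekDD than in T53D4 (1.71 and 0.78) and lower in AKTmyr than in T53D4 (-1.40 and -0.59).

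Few kinases and adaptors of the RAS to ERK core were called. Of 28 tested, 3 were higher (10.7%, beside 20.3% over all genes) and 4 lower (14.3%, beside 20%), and their median log2 fold change was 0.02. RASA3 and RASA2, which switch RAS off, were higher (1.67 ± 0.14 and 0.76 ± 0.14), and the RAS relative MRAS was lower (-0.72 ± 0.18). The gene row of MAP2K1, which encodes MEK1, stood at 178, 111 and 140.2 CPM in MekDD and 99.2, 93.4 and 133 CPM in AKTmyr, with overlap (adjusted p = 0.0714). HRAS was not called (adjusted p = 0.125). Against T53D4, RASA3 was not called in MekDD (0.13) and was lower in AKTmyr (-1.54). RASA2 was higher in MekDD than in T53D4 (0.64) and was not called between AKTmyr and T53D4 (-0.12).

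In the PI3K, AKT and mTOR core, 5 of 31 genes were higher in MekDD and 8 lower, shares of 16.1% and 25.8% beside 20.3% and 20% over all genes. The gene row of AKT1, which can take reads of the AKT plasmid, averaged 237 ± 17.5 CPM in MekDD and 939 ± 326 CPM in AKTmyr. PIK3R3, a regulatory subunit of PI3K (chr1:46040140-46133036), stood at 2.28, 4.48 and 4.78 CPM in MekDD, against 32.9, 33.7 and 34.8 CPM in AKTmyr. The AKTmyr libraries were close to one another and far above MekDD (log2 fold change -3.19 ± 0.21, adjusted p = 6.57e-07), while MekDD lay around the T53D4 mean of 3.78 CPM. DDIT4 (REDD1), an inhibitor of mTORC1, stood at 265, 169 and 265 CPM in MekDD, against 1095, 1026 and 939 CPM in AKTmyr (-2.15 ± 0.27). PHLPP1, a phosphatase that dephosphorylates AKT, was higher in MekDD (0.97 ± 0.15), as was PREX1, a RAC exchange factor (2.56 ± 0.36). The count lower was 4 in the MekDD and AKTmyr libraries fitted alone.

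Of 31 FOXO factors and targets, 6 were higher in MekDD and 7 lower, shares of 19.4% and 22.6% beside 20.3% and 20% over all genes. FOXO1 averaged 13 ± 2.58 CPM in MekDD and 27.7 ± 2.12 CPM in AKTmyr (-1.09 ± 0.17), while FOXO3 was not called (adjusted p = 0.378). SESN3, a sestrin and FOXO target, was lower in MekDD at 1.06, 0.89 and 0.845 CPM, against 17.2, 6.92 and 4.79 CPM in AKTmyr (-3.26 ± 0.32). IRS2, an adaptor of the insulin receptor, was higher in MekDD at 251 ± 44.3 CPM, against 141 ± 20.7 CPM in AKTmyr (0.80 ± 0.18). The count of FOXO genes higher was 3 without the replicate number and 3 without replicate 2 of MekDD. In the IGF and insulin list, 9 of 18 were higher (50%) and 2 lower (11.1%). The 2 lower were the ligand IGF1 and the binding protein IGFBP3. IGF1 had 0 reads in the 3 MekDD libraries and stood at 4.6, 3.17 and 13.6 CPM in AKTmyr, at least 191-fold lower in MekDD when 3 reads over the line are taken as the floor. IGFBP3 stood at 329.8, 111 and 120.0 CPM in MekDD, against 3295, 1176 and 719 CPM in AKTmyr (-3.13 ± 0.36). PAPPA, a protease that cleaves IGF binding proteins, was higher in MekDD (3.86 ± 0.35).

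Secreted and pericellular proteases differed by some of the largest ratios in the comparison. MMP1, interstitial collagenase (chr11:102789919-102798160), stood at 53.2, 48.3 and 162 CPM in MekDD, against 0.027, 0.242 and 0.458 CPM in AKTmyr and 0.308, 0.195 and 0.524 CPM in T53D4. The MekDD libraries lay far above every AKTmyr and T53D4 library, with replicate 3 highest, and the log2 fold change was 8.44 ± 0.35 (adjusted p = 3.56e-08). MMP2, gelatinase A, ran the other way at 4.49, 2.34 and 2.24 CPM in MekDD, against 470.1, 226 and 279 CPM in AKTmyr (-6.74 ± 0.35, adjusted p = 1.33e-07), and T53D4 lay between at 36 CPM. The inhibitor TIMP1 was higher in MekDD (1.51 ± 0.25). Over the 20 matrix proteases and inhibitors tested, 6 were higher (30%) and 4 lower (20%), beside 20.3% and 20% over all genes. In the plasminogen system, 7 of 18 were higher (38.9%) and 1 lower (5.56%), and the count higher was 7 under every alternative tried. The count lower was 3 without replicate 3 of AKTmyr. PLAU, the urokinase activator, stood at 259.8, 197 and 68.9 CPM in MekDD, against 41.9, 30.2 and 12.2 CPM in AKTmyr (2.62 ± 0.30). Its receptor PLAUR averaged 68.4 ± 21.6 CPM in MekDD and 24.2 ± 2.46 CPM in AKTmyr (1.47 ± 0.14), and the tissue activator PLAT 44.5 ± 25 CPM in MekDD and 5.6 ± 0.793 CPM in AKTmyr (2.9 ± 0.41). TFPI2, a protease inhibitor of the Kunitz type, and the protease-activated receptor genes F2R, F2RL1 and F2RL2 were also higher. S100A10, which binds plasminogen activators at the cell surface, was lower (-0.96 ± 0.15).

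As 7 members of the plasminogen list were higher, the promoters of the list were searched for the AP-1 letters TGANTCA. In the 250 bases before the RefSeq start (GRCh38.p14, both strands), 7 of the 15 plasminogen promoters in the table held them (46.7%), beside 3.99% of the 10892 promoters of tested genes. The 7 were PLAUR, TFPI2 and F2RL2, which were higher in MekDD, and F3, ANXA2, SERPINB2 and SERPINB8, which were not called. PLAU had no match in this window, and the part of the AP-1 letters in the difference was not tested. For the 3 genes called, the match with 10 bases on either side is given 5′ to 3′ on the gene's strand, with the AP-1 letters in capitals, since they share those letters at different distances. The match of PLAUR lies at chr19:43670339-43670365, that of TFPI2 at chr7:93890824-93890850 and that of F2RL2 at chr5:76623424-76623450, all on the minus strand.
PLAUR: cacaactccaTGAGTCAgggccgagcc
TFPI2: tccccgtgcaTGAATCAgccacccctc
F2RL2: aggcttggccTGAGTCAtgcttactga
The whole window of TFPI2 (chr7:93890754-93891003, minus strand) shows the context of its match, which begins 87 bases before the start.
TFPI2 window: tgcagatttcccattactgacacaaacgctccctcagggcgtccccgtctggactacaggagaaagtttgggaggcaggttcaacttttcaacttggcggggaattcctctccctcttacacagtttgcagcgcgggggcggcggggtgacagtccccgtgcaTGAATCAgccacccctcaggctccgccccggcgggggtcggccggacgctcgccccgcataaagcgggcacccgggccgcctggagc
Of 19 ERK output promoters in the table, 3 held the ETS letters CCGGAA (15.8%), beside 24.3% of the promoters of tested genes. Among the 3 was SPRY2, whose match begins 142 bases before its start, at chr13:80341253-80341278 on the minus strand.
SPRY2: cctgcctcctCCGGAAaggcgagggc

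Glycolysis and hypoxia genes were lower in MekDD. Of 34 tested, 24 were lower (70.6%) and 0 higher, beside 20% and 20.3% over all genes. The median log2 fold change was -0.89, and the medians of the 3 replicate pairs were -0.45, -1.31 and -0.86. SLC2A1, the glucose transporter GLUT1 (chr1:42925375-42958868), stood at 1040.3, 534 and 732 CPM in MekDD, against 2117, 1637 and 1601 CPM in AKTmyr. The lines did not overlap (log2 fold change -1.25 ± 0.13, adjusted p = 3.08e-05), and MekDD was not called against T53D4 (0.24, adjusted p = 0.275), whereas AKTmyr was (1.49, adjusted p = 1.83e-05). EGLN3, a prolyl hydroxylase that marks HIF for degradation and is itself induced in hypoxia, stood at 5.64, 1.6 and 3.47 CPM in MekDD, against 39.2, 22.6 and 19.3 CPM in AKTmyr (-3.05 ± 0.27). The glycolytic enzymes ALDOC, GAPDH, ENO2, PGAM1 and GPI had log2 fold changes of -1.79 ± 0.22, -1.06 ± 0.13, -1.0 ± 0.12, -0.83 ± 0.17 and -0.88 ± 0.19. P4HA1, a collagen prolyl hydroxylase, and ADM, the vasodilator adrenomedullin, had values of -1.42 ± 0.17 and -1.47 ± 0.20. Replicate 2 was the lowest of the 3 MekDD libraries and of the 3 T53D4 libraries in this list. Without the replicate number in the model the list median was -0.86 and 11 members were called lower.

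The letters ACGTG, a core bound by hypoxia-inducible factors, stood in 12 of 30 promoters of the list (40%), beside 23% of the promoters of tested genes. The 12 comprised 9 members lower in MekDD and 3 not called, where 70.6% of all members tested in the list were lower. The same letters stood in 5 of 11 matrix protease promoters (45.45%) and 10 of 28 MYC and ribosome biogenesis promoters (35.7%). They stood in 5 of 19 ERK output promoters (26.3%) and 3 of 15 plasminogen promoters (20%). The part of these letters in the difference was not tested. Matches of 4 members that were lower in MekDD are given with 10 bases on either side, 5′ to 3′ on the gene's strand, the core in capitals in either orientation (ACGTG or its reverse complement). They lie at chr10:73096938-73096962 (P4HA1, minus strand), chr17:28576909-28576933 (ALDOC, minus strand), chr12:6535174-6535198 (GAPDH, plus strand) and chr12:6914452-6914476 (ENO2, plus strand).
P4HA1: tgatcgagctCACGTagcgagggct
ALDOC: ccggaggagtCACGTagctctgcga
GAPDH: ctgcggggtcACGTGtcgcagagga
ENO2: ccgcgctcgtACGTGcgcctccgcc
No match to ACGTG was found in the windows of SLC2A1, EGLN3 and ADM, and other forms of the core were not searched.

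In other metabolic lists more members were lower than higher in MekDD. In sterol and fatty acid synthesis, 16 of 34 were lower (47.1%) and 1 was higher (2.94%), beside 20% and 20.3% over all genes. Of the 16, 7 were without overlap between the lines, beside 4488 of all 5470 genes called. The median was -0.42, with pair medians of -0.77, 0.07 and -0.44, and it was -0.26 without replicate 1 of AKTmyr. INSIG1, which retains SREBP in the endoplasmic reticulum and is itself an SREBP target, stood at 81.9, 65.7 and 54.6 CPM in MekDD, against 355, 112 and 151 CPM in AKTmyr, where replicate 1 was high (-1.49 ± 0.20). HMGCS1 and the desaturase FADS2 had log2 fold changes of -1.26 ± 0.24 and -1.18 ± 0.17. The count lower was 8 without the replicate number, 6 in the MekDD and AKTmyr libraries alone and 9 without replicate 1 of MekDD. Of the NRF2 targets and aldo-keto reductases, 15 of 27 were lower (55.6%) and 4 higher (14.8%). AKR1B10, PIR, TRIM16L and NQO1 had log2 fold changes of -5.12 ± 0.46, -2.33 ± 0.22, -1.69 ± 0.15 and -1.07 ± 0.24. TXNRD1, thioredoxin reductase, was among the 4 higher (0.63 ± 0.17), though not without the replicate number or without replicate 1 of AKTmyr (adjusted p = 0.129 and 0.0647). In the MekDD and AKTmyr libraries alone 9 of the list were lower, and without replicate 1 of AKTmyr 2 were higher.

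Ribosome biogenesis genes were higher in MekDD than in AKTmyr, by smaller amounts, and T53D4 lay near MekDD. Of 33 tested, 24 were higher (72.7%) and 0 lower, beside 20.3% and 20% over all genes, with a median of 0.65. POLR1C, a subunit of RNA polymerases I and III, averaged 25.5 ± 1.76 CPM in MekDD and 13.4 ± 1.46 CPM in AKTmyr (0.93 ± 0.12). The box C/D protein NOP58 and the nucleolar proteins LYAR and GNL3 had log2 fold changes of 0.89 ± 0.19, 1.07 ± 0.23 and 0.77 ± 0.11. The count was 15 without replicate 1 of AKTmyr and 15 in the 6 libraries alone. Against each gene's mean over the 6 MekDD and AKTmyr libraries, the list median in log2 CPM was 0.35, 0.20 and 0.39 in T53D4. It was 0.37, 0.32 and 0.25 in MekDD and -0.63, -0.17 and -0.12 in AKTmyr. POLR1C, NOP58 and LYAR were not called between MekDD and T53D4 (log2 fold changes -0.06, 0.10 and 0.28). These genes were lower in AKTmyr than in T53D4 (-0.99, -0.80 and -0.79).

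For DNA replication genes, 16 of 42 were higher in MekDD (38.1%) and 0 lower, beside 20.3% and 20% over all genes. The median was 0.45, but the pair medians were 1.06, 0.58 and -0.12. The MekDD libraries were alike in this list and the AKTmyr libraries were spread. MCM7, a subunit of the replicative helicase, stood at 309, 316 and 308 CPM in MekDD, against 96, 149.6 and 249.9 CPM in AKTmyr (0.99 ± 0.22). CDT1, which loads that helicase, stood at 60.1, 71.4 and 55 CPM in MekDD, against 23.3, 32.1 and 38.7 CPM in AKTmyr (1.01 ± 0.16). The count was 4 without the replicate number, 6 in the 6 libraries alone, and 5 without replicate 1 of MekDD, replicate 2 of MekDD or replicate 1 of AKTmyr. It was 9 without replicate 2 of AKTmyr and 25 without replicate 3 of AKTmyr. Of 39 kinetochore and spindle checkpoint genes, 6 were higher (15.4%, beside 20.3% over all genes) and 0 lower. The mitotic kinase, spindle and cytokinesis list had 5 of 46 higher (10.9%) and 1 lower (2.17%). The checkpoint kinases BUB1 and TTK, the scaffold KNL1 and the Aurora kinases AURKA and AURKB were not called (adjusted p = 0.773, 0.23, 0.284, 0.443 and 0.112). BUB1B was not called either, at 76.7, 92.5 and 77.3 CPM in MekDD and a wider spread of 41.5, 52.8 and 98.9 CPM in AKTmyr (adjusted p = 0.199). The kinetochore count ranged from 0 without replicate 1 of AKTmyr to 10 without replicate 3 of MekDD, and the mitotic count from 1 without either of replicates 1 and 2 of MekDD or replicate 1 of AKTmyr to 10 without replicate 3 of MekDD. The mitotic count was 9 without replicate 3 and 2 without replicate 2 of AKTmyr, and the kinetochore count was 1 without replicate 1 or 2 of MekDD or replicate 2 of AKTmyr. CDC25B, a phosphatase that opens mitotic entry, was the member lower in MekDD (-0.73 ± 0.12).

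**Figure D4:**
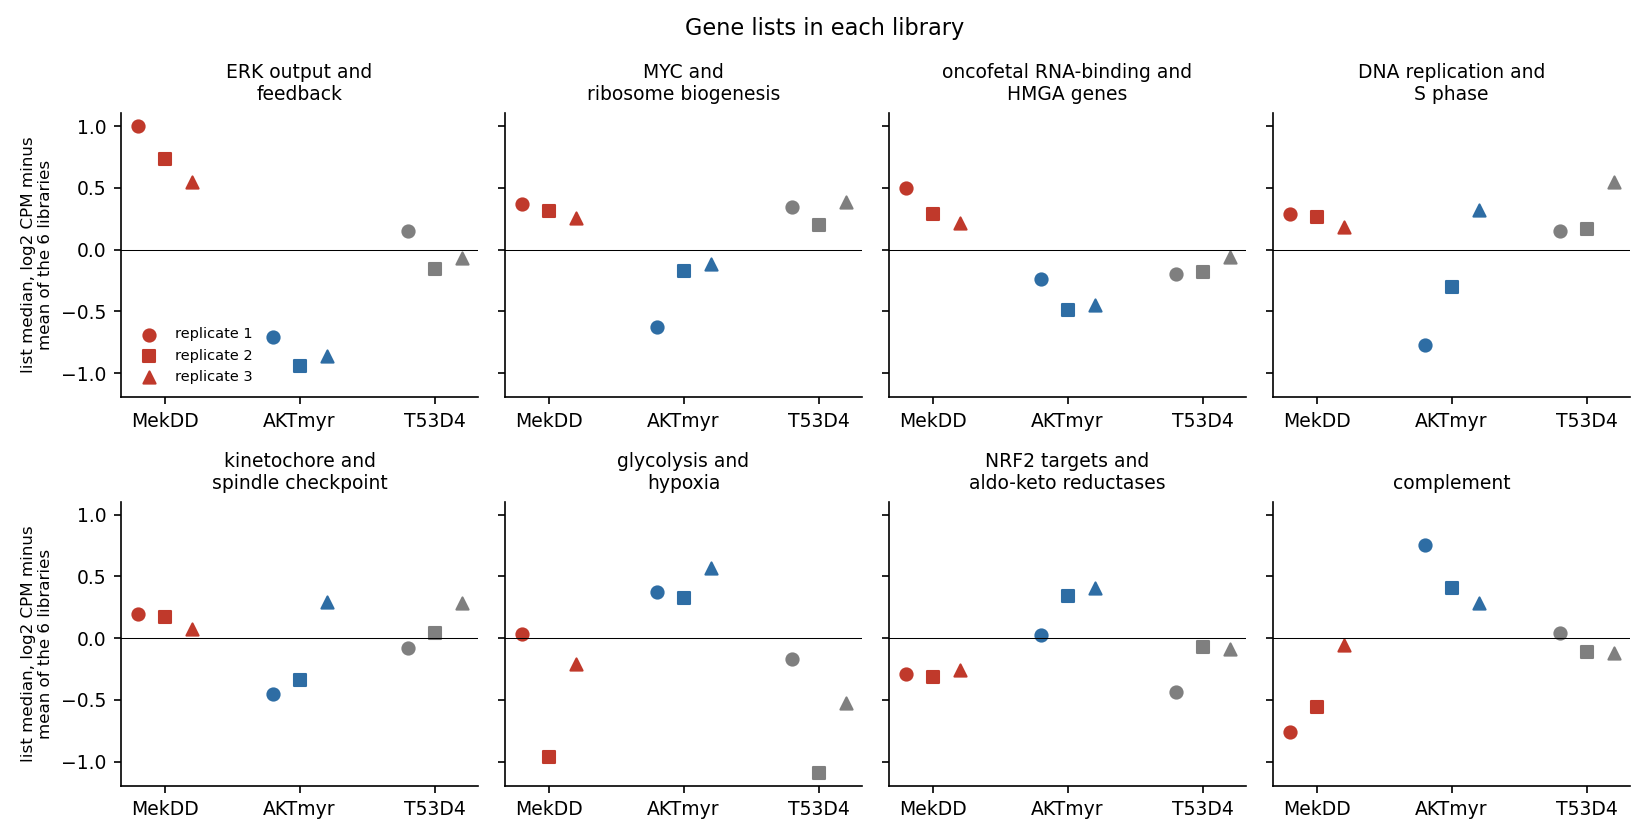
Median over the tested members of 8 gene lists of log2 CPM minus each gene's mean over the 6 MekDD and AKTmyr libraries, per library of MekDD, AKTmyr and T53D4 (circle, square and triangle are replicates 1, 2 and 3). ERK output genes separate MekDD (1.0, 0.73 and 0.55) from AKTmyr (-0.71, -0.94 and -0.86), while for DNA replication the AKTmyr libraries spread over -0.77, -0.31 and 0.32.

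p21 and other p53 targets were lower in MekDD. CDKN1A, the CDK inhibitor p21 (chr6:36676460-36687339), stood at 204, 152 and 139.8 CPM in MekDD, against 1399, 1027 and 622 CPM in AKTmyr (-2.59 ± 0.25, adjusted p = 1.33e-05). MekDD lay near T53D4, at 191 CPM, and AKTmyr above it (2.37). Of 30 p53 targets, 11 were lower (36.7%) and 1 higher (3.33%), beside 20% and 20.3% over all genes, with a median of -0.30. PHLDA3, SESN1 and BTG2 had log2 fold changes of -0.96 ± 0.15, -0.86 ± 0.15 and -1.01 ± 0.25. The p53DD row differed between the lines as given above, and its part here was not tested. The 1 target higher was PMAIP1, which encodes the BH3 protein NOXA (0.95 ± 0.30); PMAIP1 was not called without replicate 1 or 2 of either line or in the 6 libraries alone. The count of p53 targets higher was 2 without replicate 3 of MekDD or replicate 2 of AKTmyr. The count of p53 targets lower was 7 without replicate 2 of MekDD or replicate 2 of AKTmyr, and 6 in the 6 libraries alone. The gene row of CDK4, which can take reads of the CDK4R24C plasmid, averaged 129 ± 14.9 CPM in MekDD and 757 ± 43.3 CPM in AKTmyr. CCNE1, the G1 cyclin E1, was higher in MekDD (0.85 ± 0.12).

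Matrix and basement membrane genes were more often lower than higher in MekDD. COL5A1, a fibrillar collagen chain (chr9:134641774-134844843), stood at 6.89, 0.966 and 1.99 CPM in MekDD, against 755, 226 and 154 CPM in AKTmyr. The log2 fold change was -6.94 ± 0.41 (adjusted p = 3.51e-07), with T53D4 between them at 59.8 CPM. COL4A1, a chain of basement membrane collagen IV, averaged 288 ± 127 CPM in MekDD and 2162 ± 1160.4 CPM in AKTmyr (-2.89 ± 0.41), and its partner COL4A2 had a value of -1.93 ± 0.34. In contrast, the transmembrane collagen COL13A1 was higher in MekDD (4.59 ± 0.35). Over the collagen chains, 9 of 25 were lower (36%) and 6 higher (24%), beside 20% and 20.3% over all genes. The count of collagen chains higher was 3 without the replicate number. Among matricellular genes, 16 of 37 were lower (43.2%) and 5 higher (13.5%). TGFBI stood at 1799, 825 and 1399 CPM in MekDD, against 6421, 4598 and 5806 CPM in AKTmyr (-2.10 ± 0.23), and POSTN, periostin, had a value of -5.55 ± 0.90. The lysyl oxidase LOXL4 was higher in MekDD (4.35 ± 0.39). The count of matricellular genes higher was 3 without replicate 1 of MekDD, replicate 2 of MekDD or replicate 1 of AKTmyr, and 2 without the replicate number. In the laminins and integrins 9 of 26 were lower (34.6%) and 5 higher (19.2%, near the share over all genes), with 5 lower without replicate 1 of MekDD. LAMA1 had 0 reads in MekDD and 66 in AKTmyr, at least 19.7-fold lower in MekDD. ITGA5, the fibronectin receptor subunit, averaged 297 ± 5.9 CPM in MekDD and 799.5 ± 141 CPM in AKTmyr (-1.42 ± 0.25).

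Epithelial and mesenchymal genes did not move as blocs. KRT7, a keratin of simple epithelia (chr12:52232520-52252186), stood at 40.1, 29.9 and 28.6 CPM in MekDD, against 1293, 2597 and 721 CPM in AKTmyr and 1609.8, 1436 and 943 CPM in T53D4. The log2 fold change was -5.47 ± 0.45, and T53D4 lay beside AKTmyr. KRT16, a keratin of stratified epithelia, was at 0.0648 ± 0.0912 CPM in MekDD and 12.4 ± 10.8 CPM in AKTmyr. CDH1, E-cadherin, had 2 reads in MekDD and 120 in AKTmyr, a ratio of AKTmyr over MekDD of 53.6 (95% counting interval 14.5 to 448, exact binomial). CDH6, a cadherin of developing kidney and neural tissue, was lower in MekDD (-6.59 ± 0.58), and the tight junction genes CLDN1 and CLDN4 and desmoplakin (DSP) were higher (1.31 ± 0.27, 1.18 ± 0.15 and 1.0 ± 0.14). Over the epithelial list, 7 of 30 were higher and 10 lower (23.3% and 33.3%), and the mesenchymal list had 10 of 23 higher and 5 lower (43.5% and 21.7%), beside 20.3% and 20% over all genes. NT5E, the ecto-nucleotidase CD73, stood at 2786, 1841 and 1229 CPM in MekDD, against 174, 129 and 454 CPM in AKTmyr (3.15 ± 0.44). The hyaluronan receptor CD44 and the kinase AXL were higher (1.16 ± 0.15 and 0.54 ± 0.14), PDGFRB and SNAI1 were lower (-1.83 ± 0.44 and -2.83 ± 0.56), and VIM and CDH2 were not called (adjusted p = 0.0691 and 0.977).

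Of 29 interleukins and chemokines, 3 were higher in MekDD and 5 lower, shares of 10.3% and 17.2% beside 20.3% and 20% over all genes, while in the interferon, class I and complement lists more members were lower than higher. IL33, an alarmin of the interleukin-1 family, stood at 17.5, 21 and 32.2 CPM in MekDD, against 1.22, 1.61 and 0.958 CPM in AKTmyr and 0.205, 0.282 and 0.715 CPM in T53D4. The lines did not overlap (4.06 ± 0.37, adjusted p = 9.38e-06). IL11 stood at 12.7, 3.89 and 1.48 CPM in MekDD and 0.487, 0.0441 and 0.125 CPM in AKTmyr, replicate 1 being the highest in each (4.8 ± 0.73). The chemokine CXCL12 had 0 reads in MekDD and 183 in AKTmyr, at least 54.5-fold lower in MekDD, while its receptor CXCR4 was higher, at 18.7 ± 3.53 CPM in MekDD and 0.639 ± 0.324 CPM in AKTmyr (4.88 ± 0.33). Of 32 interferon-response genes, 15 were lower (46.9%) and 6 higher (18.8%). OAS1, which senses double-stranded RNA, was lower (-3.42 ± 0.32), and IFIT2 and IFIT3 were higher (1.29 ± 0.11 and 1.72 ± 0.19). The count lower was 9 without replicate 2 of AKTmyr. In class I antigen presentation, 8 of 18 were lower (44.4%) and 0 higher. The 8 included the transporter TAP1 and HLA-C (-1.02 ± 0.23 and -0.86 ± 0.21). Reads of the near-identical HLA genes can be split in counting. Of 18 complement genes, 10 were lower (55.6%) and 2 higher (11.1%). C1S and C1R, the proteases of the first component, averaged 24 ± 17.5 and 24.6 ± 16.3 CPM in MekDD, against 113 ± 21.3 and 96 ± 4.64 CPM in AKTmyr. The complement count lower was 5 without replicate 1 of MekDD, replicate 2 of MekDD or replicate 1 of AKTmyr, and the count higher was 1 without replicate 2 or 3 of MekDD or replicate 2 of AKTmyr.

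LHX2, a homeobox factor of the eye field, stood at 35.5, 37.8 and 41.2 CPM in MekDD, against 1.3, 1.26 and 1.83 CPM in AKTmyr. The log2 fold change was 4.73 ± 0.24 (adjusted p = 1.33e-07). MekDD was not called against T53D4 (0.48), and AKTmyr was below it (-4.25). SERPINF1, the pigment epithelium-derived factor, stood at 25.8, 24.9 and 28.1 CPM in MekDD, against 1.62, 2.82 and 2.04 CPM in AKTmyr (3.64 ± 0.23). OTX2, a homeobox factor of pigment epithelium, was not called (adjusted p = 0.081), and over the retinal pigment epithelium identity list 6 of 24 were higher and 4 lower, shares of 25% and 16.7% beside 20.3% and 20% over all genes. The 4 lower included MITF (-0.51 ± 0.19, adjusted p = 0.0456) and TYRP1 (-2.01 to -0.95 over the alternatives tried). MITF was not called in 6 of 13 alternatives and TYRP1 in 2 of 13. The count lower in this list ran from 0 without replicate 2 of MekDD, and 2 without replicate 1, to 7 without replicate 3 of MekDD. Among WNT genes, 7 of 26 were higher and 5 lower (26.9% and 19.2%). The receptor FZD8 stood at 42, 36.5 and 42.5 CPM in MekDD, against 1.89, 2.2 and 2.08 CPM in AKTmyr (4.28 ± 0.19), and the secreted antagonist SFRP1 averaged 346 ± 108 CPM in MekDD and 24.8 ± 9.01 CPM in AKTmyr (3.84 ± 0.27). The count of WNT genes lower was 3 without replicate 1 of either line. BMP2 was higher in MekDD at 37.1, 33.8 and 28.2 CPM, against 4.68, 4.52 and 3.71 CPM in AKTmyr (2.93 ± 0.18), and ID4, a target of BMP signalling, was lower (-3.93 ± 0.54). Of 27 BMP genes, 6 were higher and 8 lower (22.2% and 29.6%), and the count higher was 3 without replicate 1 of AKTmyr. The intermediate filament genes NES and NEFH moved in opposite directions (4.53 ± 0.38 and -7.83 ± 0.41).

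**Figure D5:**
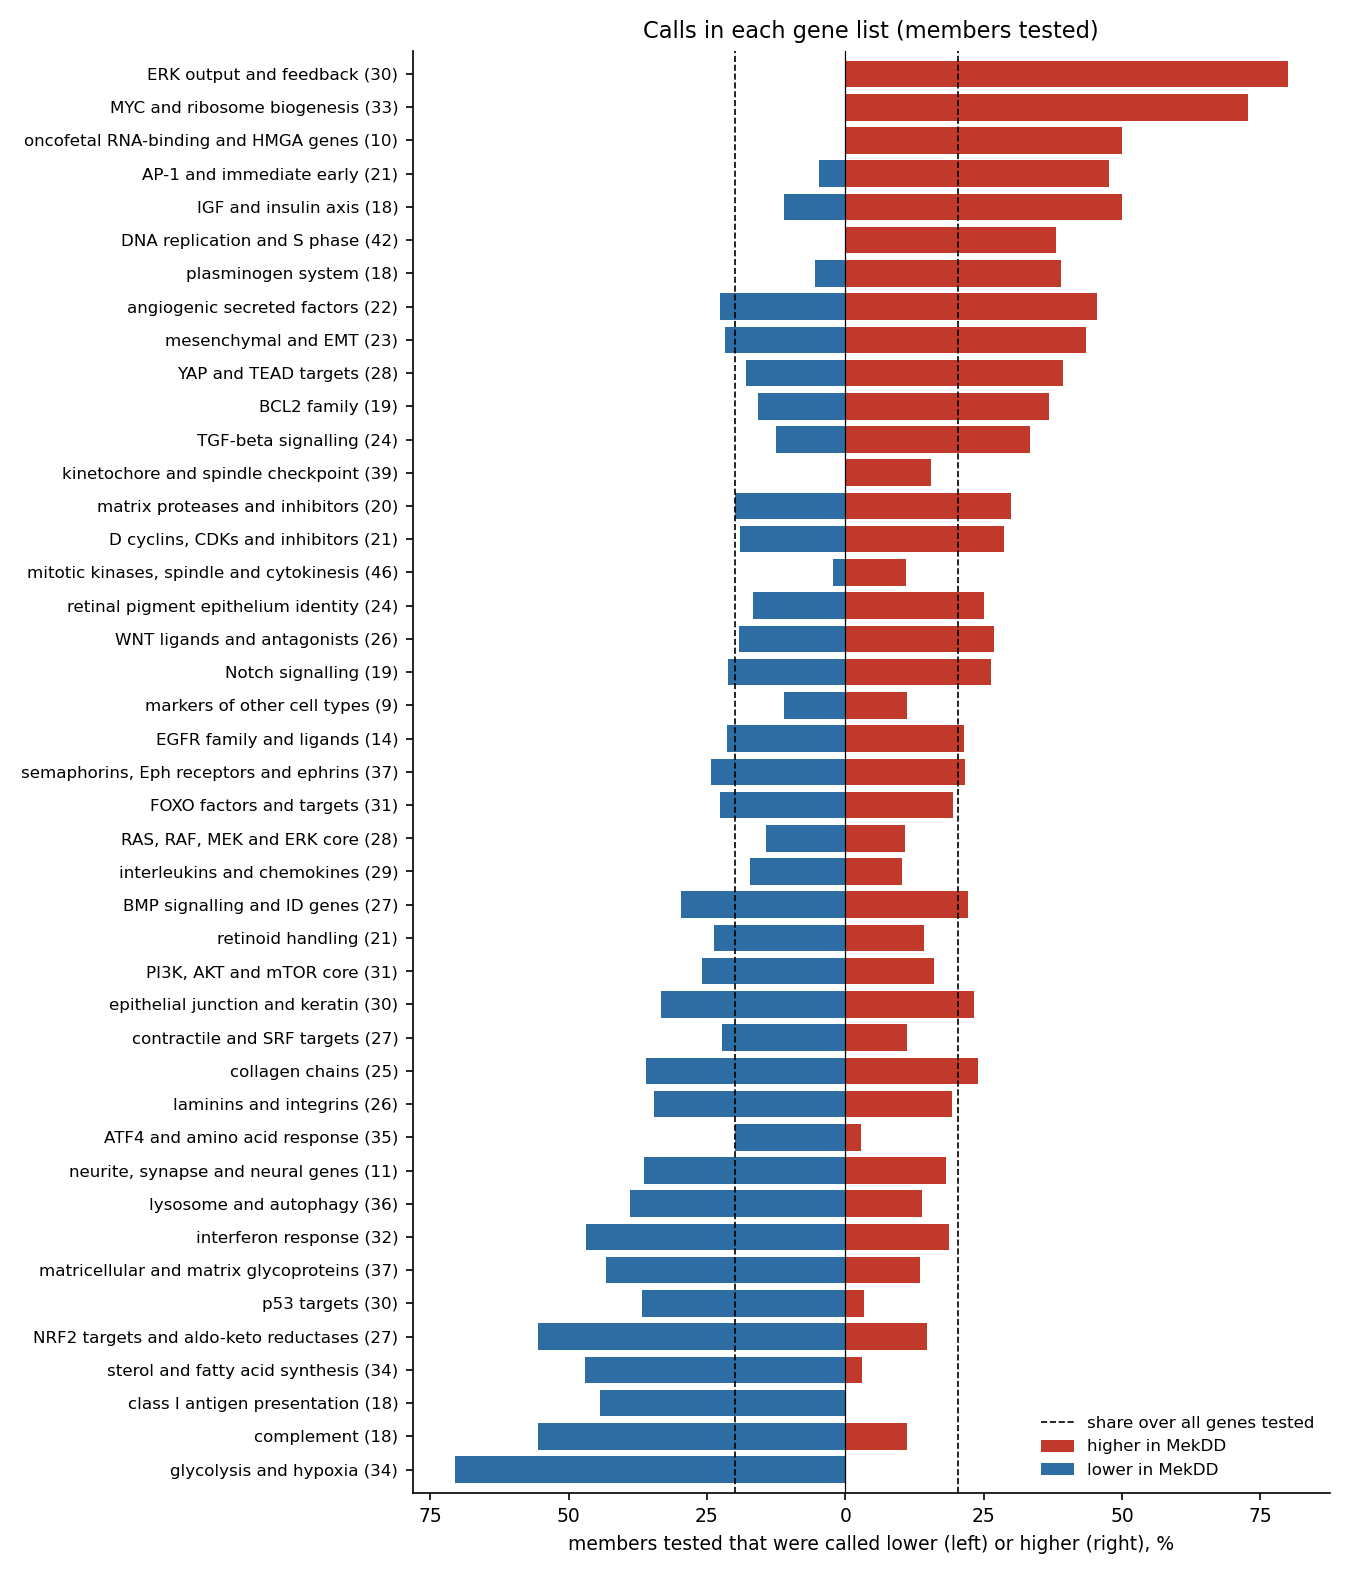
Share of the tested members of each of the 43 gene lists called higher (red, right) or lower (blue, left) in MekDD than in AKTmyr, in %, with the number tested in brackets; dashed lines give the shares over all 13588 genes, 20.3% higher and 20% lower. ERK output (80% higher) and MYC and ribosome biogenesis lie at the top, and glycolysis and hypoxia (70.6% lower) at the bottom.

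By size alone, among genes that reached a mean of 5 CPM in one of the lines without overlap between them, the 15 largest rises included, beside genes named above, the adhesion receptor ADGRL4, the glutaminyl cyclase QPCT, VAT1L and MYRIP. QPCT stood at 15.1, 13.5 and 9.51 CPM in MekDD, against 0.297, 0.286 and 0.208 CPM in AKTmyr (5.54 ± 0.35). ADGRL4 had 896 reads in MekDD and 3 in AKTmyr, a ratio of 334 (114 to 1624). The 15 largest falls included several genes near 0 in MekDD and well expressed in AKTmyr. The copper-dependent ferroxidase HEPH stood at 0.0312, 0.203 and 0.169 CPM in MekDD, against 71.6, 51.7 and 34.7 CPM in AKTmyr (-8.55 ± 0.34), and the glypican GPC4 at 0.343, 0.941 and 1.27 CPM in MekDD, against 87.1, 99.4 and 124 CPM in AKTmyr (-6.98 ± 0.39). T53D4 lay closer to AKTmyr than to MekDD for both genes, with AKTmyr over T53D4 at 0.61 and 0.89 on the log2 scale. The dependence receptor UNC5B was placed otherwise, at 0.393 ± 0.36 CPM in MekDD, 86.6 ± 52.7 CPM in AKTmyr and 2.37 ± 0.205 CPM in T53D4. GSTA1, ITIH5, ITM2A, EDN2, ACTC1, ADAMTS2 and KLK11 were also among these falls. These counting intervals cover counting error only, since the reads carry no molecular identifiers.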

How the data were processed

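Poly(A) RNA of 15 libraries, 3 from each of 5 lines, was sequenced. The authors deposited whole-number read counts per gene, with added rows for the constructs. The submitters' processing notes name fastp 0.20.0, HISAT2 2.1.0, SAMtools 1.9, featureCounts 1.6.4, deepTools 3.2.0, DESeq2 1.28.1 and the build hg38; strand use, multi-mapping rules and the annotation used for counting are not given in the sources used here. Libraries were grouped by their labels, and the members and lists were chosen with earlier results of these data known.

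From the deposited counts, 7 construct rows and 12 chromosome Y genes were set aside, genes were kept by edgeR's filter at a minimum count of 10 and libraries were scaled by TMM (R 4.3.3, edgeR 4.0.16, limma 3.58.1). Genes were tested by edgeR's quasi-likelihood test over all 5 lines with line and replicate number in the model and Benjamini-Hochberg adjustment over all genes tested, with calls at 0.05. CPM values are scaled by library size and TMM and not by length. The standard error is the log2 fold change divided by the root of the F statistic. The replicate number was kept because the comparison is defined as paired by replicate number. Same-numbered MekDD and AKTmyr libraries deviated together from their line means (r = 0.31, 0.34 and 0.17), over genes, which are not independent. Differently numbered ones had r = -0.28 to 0.06. Deviations from a line mean cancel within the line, so these lower values follow from the higher ones and are no separate evidence. DESeq2 1.42.0, other filters and scalings, the 6 libraries alone, the fit without the replicate number and each library left out were tried. Scripts were tested on simulated data.

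Genes named were 39 chosen by role, the 15 largest changes in each direction among non-overlapping genes with a mean of 5 CPM or more in the higher line, and up to 5 called members with the largest change per list; further list members are given by value, and 4 genes the rules reach are not reported here. Gene coordinates are those of GENCODE on hg38, and promoter sequence is from RefSeq (GRCh38.p14). Counting intervals, at 95%, and floors of 3 reads over a line cover counting error only.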

Additional observations from a re-analysis of the deposited data

How the results depend on the processing

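Genes higher in MekDD numbered 2753 and genes lower 2717. They numbered 1722 and 1821 without the replicate block, and 1432 and 1562 in the MekDD and AKTmyr libraries alone. With a filter at a mean of 5 CPM, at which 10873 genes were tested, 380 genes were at least 2-fold higher and 575 at least 2-fold lower. Leaving out 1 library at a time, genes higher ranged from 1771, without replicate 1 of AKTmyr, to 2667. The cause of these changes was not tested, apart from the smaller number of genes under the stricter filter and of samples where libraries were left out. Of 247 named genes, 230 were called, 177 of them under every alternative, and none reversed direction while called. The genes that changed sign were not called. The CDH2 log2 fold change was -0.0163 with DESeq2's size factors and with DESeq2, -0.00261 with no filter and -0.00676 with the 5 CPM filter, and -0.127 to 0.0731 with 1 library left out. With 1 library left out the CCND1 log2 fold change ranged from -0.24 to 0.23, the ERBB3 log2 fold change from -0.75 to 0.23, the BUB1 log2 fold change from -0.0497 to 0.323, the further member UPP1 from -0.0264 to 0.506 and the further member EPHA4 from -0.34 to 0.109. Without the replicate block, further list counts were 2 RAS core genes lower, 2 matrix proteases lower, 1 complement gene higher, 4 WNT genes higher, 3 BMP genes higher and 4 lower, 1 retinal pigment epithelium gene lower, 1 NRF2 target higher, 1 kinetochore gene higher and 1 mitotic gene higher. Depth limits genes near 0: a fold against a line with no reads is a lower bound.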

Other observations

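Guidance, growth factor and survival genes outside the groups above also differed. Among semaphorins, Eph receptors and ephrins, 8 of 37 were higher in MekDD and 9 lower, shares of 21.6% and 24.3% beside 20.3% and 20% over all genes. EPHB1 and PLXNA4 were higher (log2 fold changes 3.59 ± 0.35 and 3.6 ± 0.45), and EPHA3 and the semaphorin co-receptor NRP2 were lower (-3.24 ± 0.39 and -2.49 ± 0.24). Of 22 angiogenic secreted factors, 10 were higher (45.5%) and 5 lower (22.7%), and the count lower was 3 without replicate 1 or 2 of MekDD. STC1, a secreted glycoprotein, stood at 13.5, 12.9 and 14.7 CPM in MekDD, against 3.38, 0.947 and 0.792 CPM in AKTmyr, and VEGFA averaged 329 ± 296 CPM in MekDD and 631 ± 255 CPM in AKTmyr (-1.19 ± 0.29), a difference not called without the replicate number (adjusted p = 0.27). VEGFC was higher in MekDD (0.81 ± 0.15). In the BCL2 family, 7 of 19 were higher (36.8%) and 3 lower (15.8%). The survival proteins BCL2L1, BCL2 and MCL1 had log2 fold changes of 1.16 ± 0.11, 0.90 ± 0.22 and 0.51 ± 0.10, and the effector BAK1 -0.75 ± 0.13. MCL1 was not called without the replicate number (adjusted p = 0.0781). The count higher was 4 without replicate 1 of either line.

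In Notch signalling, 5 of 19 were higher and 4 lower, shares of 26.3% and 21.1% beside 20.3% and 20% over all genes. The receptor gene NOTCH3 had 2 reads in MekDD and 70 in AKTmyr, a ratio of AKTmyr over MekDD of 31.3 (95% counting interval 8.34 to 263), and the target HES1 was lower as well (-1.99 ± 0.41), while NRARP, another target, was higher (2.31 ± 0.39). Of 36 lysosome and autophagy genes, 14 were lower (38.9%) and 5 higher (13.9%). The lysosomal regulator TFEB and the sialidase NEU1 had log2 fold changes of -1.41 ± 0.19 and -0.93 ± 0.14. The count lower was 5 without the replicate number, 9 without replicate 1 of MekDD or replicate 2 of AKTmyr, and 8 without replicate 2 of MekDD or replicate 1 of AKTmyr. By chromosome arm, the 93 genes of 20p with enough reads had a median log2 fold change of -0.21, with 10 higher and 29 lower, beside 2305 higher and 2062 lower of the 10654 genes placed on the 40 arms and a median of 0.03 over them. The arm was chosen after its value was seen, as the one with the lowest median. Its replicate pairs gave -0.19, -0.32 and -0.11. Against T53D4 the 20p median was 0.03 for MekDD and 0.21 for AKTmyr; these 2 values share the T53D4 libraries.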
